A study of Rattus norvegicus with 8 samples.

Results

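The laminins, nidogens and perlecan, the non-collagen framework proteins of basement membranes, were examined in the saphenous artery, a muscular type artery of the leg, of male Wistar rats. The genes were taken by symbol from a named list of 10, namely Lama2, Lama3, Lama4, Lama5, Lamb1, Lamb2, Lamc1, Nid1, Nid2 and Hspg2, and 9 of them were measured among 19239 genes on the arrays. Lamb2 was not analysed here. Affymetrix arrays gave 1 log2 expression value per gene and sample for 4 adult samples (rats aged 2 to 3 months, each sample the 2 arteries of 1 animal) and 4 young samples (rats aged 10 to 12 days, each sample 4 arteries pooled from 2 animals). No treatment is named for either group. Age and pooling of animals changed together between the groups and cannot be told apart. The comparison asks which genes of the vessel wall change between early postnatal life and adulthood.

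Laminins are trimers of an alpha, a beta and a gamma chain that are secreted by cells and join into a sheet at the cell surface. The long end of the alpha chain binds integrins and dystroglycan on the cell, whereas the short arms of the chains bind each other and form the network. Nidogens bridge the laminin gamma-1 chain to type IV collagen and perlecan, and perlecan carries heparan sulfate chains that hold growth factors. In an artery such sheets lie beneath the endothelium and around every smooth muscle cell.

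The expression of 7 of the 9 measured genes was lower in arteries of adult rats, and that of 0 was higher (limma, Benjamini-Hochberg adjusted p below 0.01 over all genes, two-sided). Over the whole array 32.7% of genes passed the same criterion, of which 16% of all genes were lower in adult arteries and 16.7% were higher. With arrays centred by 30 ribosomal protein genes and tested gene by gene by ANOVA, a setting chosen after the data were seen, 1036 genes were higher and 536 lower, and the same 7 members were lower. The median adult minus young difference of the 9 genes was -0.93 on the log2 scale, against 0.002 for all genes. The list was chosen with results of these samples known, so its direction is not independent evidence. In 8 of the 9 genes the 4 adult values lay below the 4 young values, a separation found in 21.5% of all genes (46% in either direction). Each difference given is adult minus young in log2 units, followed by ± its standard error from limma, and rests on 4 arrays of each age. A log2 value is set only against values of the same gene, since probe sets of different genes do not share a scale.

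**Figure D1:**
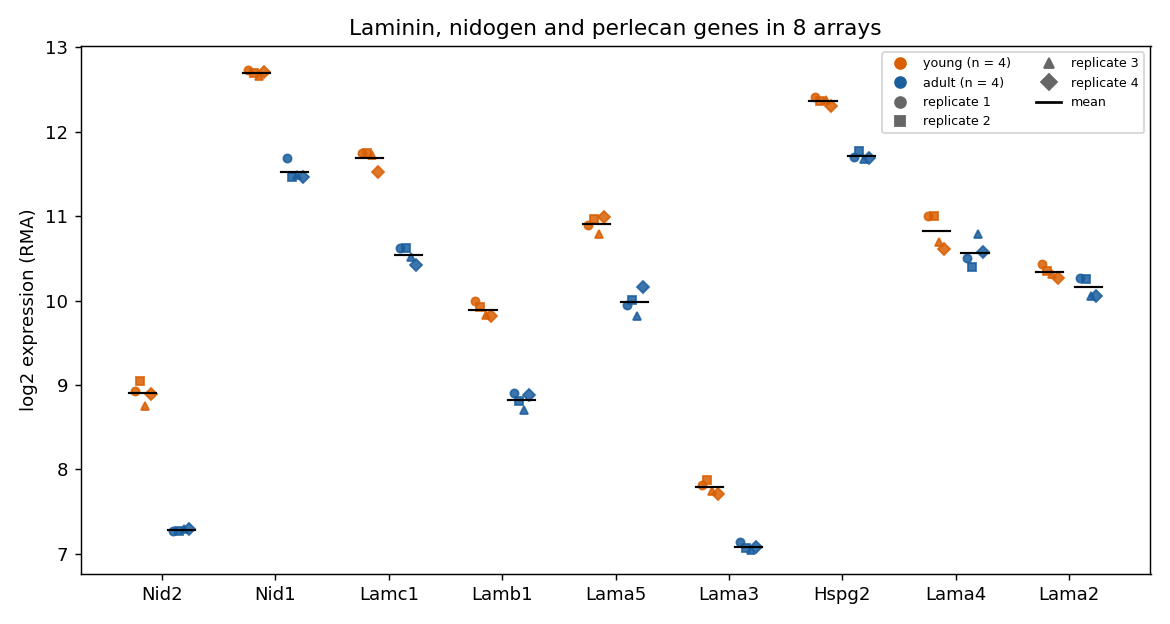
The log2 expression (vertical axis) of the 9 measured genes is plotted for each array, with young arrays in orange, adult arrays in blue, a symbol for each replicate number and a black line at the group mean. Adult points lie below young points in every gene but Lama4, and those of Lama2 nearly touch.

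The nidogens, which link the networks of the sheet, both fell. Nid2 (Entrez Gene 302248), nidogen-2, was at 8.93, 9.04, 8.75 and 8.89 in young replicates 1 to 4, and at 7.27, 7.27, 7.29 and 7.29 in the adult replicates. The groups were far apart, and the adult values lay at the median of the whole table (7.29). The difference was -1.62 ± 0.056 (limma adjusted p = 2.36e-06), a 3.08-fold lower adult level. The size of this fold depends on how the background is treated. With the lowest intensity of the table subtracted and an offset of 16 added before the log, the difference of Nid2 was -2.67. The same offset was added wherever the lowest intensity is said to be subtracted. For genes with values near the lower end of the range of the table, the size of the difference depends on that offset. Nid1 (Entrez Gene 25494), nidogen-1 or entactin, was at 12.73, 12.70, 12.67 and 12.71 in young and at 11.69, 11.47, 11.49 and 11.46 in adult arteries. Adult replicate 1 was the highest of its group and still far below every young array. The difference of Nid1 was -1.17 ± 0.051 (limma adjusted p = 5.35e-06), a 2.26-fold lower adult level. In the deposited values these were the lowest differences of the 9 genes, but Nid1 was not told apart from Lamc1 or Lamb1, and with the lowest intensity subtracted its difference (-1.20) lay above those of Lama3 (-1.64) and Lamb1 (-1.25).

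The nidogens were also compared within each array, which removes any shift common to an array. The log2 value of Nid1 minus that of Nid2 had a mean of 3.80 and an SD of 0.109 over the young arrays, and a mean of 4.25 and an SD of 0.114 over the adult arrays. Nid2 minus Nid1 thus changed by -0.45 between the ages, with no overlap of the arrays (exact permutation test, two-sided, p = 0.0286, the smallest that 4 against 4 arrays allow). It became -1.47 with the lowest intensity subtracted.

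Of the beta and gamma chains shared by most laminins, both measured members fell. Lamc1 (Entrez Gene 117036), the gamma-1 chain that carries the nidogen binding site, was at 11.75, 11.75, 11.72 and 11.53 in young and at 10.62, 10.62, 10.52 and 10.42 in adult arteries. The groups did not overlap, although young replicate 4 was lower than the other young arrays. The difference was -1.14 ± 0.066 (limma adjusted p = 1.61e-05), a 2.21-fold lower adult level. Lamb1 (Entrez Gene 298941), the beta-1 chain, was at 9.99, 9.92, 9.83 and 9.81 in young and at 8.90, 8.81, 8.70 and 8.89 in adult arteries. Its arrays of 1 age lay within 0.3 of each other, with no overlap between ages. The difference of Lamb1 was -1.06 ± 0.057 (limma adjusted p = 1.17e-05), a 2.09-fold lower adult level. Lamb1 minus Lamc1 within arrays changed by 0.08 (exact permutation test, two-sided, p = 0.371), so unequal change of these chains was not detectable with 4 arrays per age.

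The alpha chains, which give a laminin its cell binding, split. Lama5 (Entrez Gene 140433), the alpha-5 chain found beneath mature endothelium and in epithelia, was at 10.90, 10.96, 10.79 and 10.99 in young and at 9.95, 10.00, 9.81 and 10.16 in adult arteries. The highest adult array lay well below the lowest young array. The difference was -0.93 ± 0.077 (limma adjusted p = 7.4e-05), a 1.91-fold lower adult level. Lama3 (Entrez Gene 307582), the alpha chain of the epidermal laminin that anchors keratinocytes, was at 7.82, 7.87, 7.74 and 7.71 in young and at 7.14, 7.07, 7.05 and 7.08 in adult arteries. Its adult values lay under the median of the table. Its difference of -0.70 ± 0.037 (limma adjusted p = 1.14e-05) became -1.64 with the lowest intensity subtracted. Markers of epithelium were near the bottom of the table at both ages: 0 of 8 measured keratin, junction and adhesion genes passed the test (limma, with 1 at an unadjusted p under 0.05, and 0 by ANOVA), and their mean ran from 6.994 to 7.004 in adult and from 6.993 to 7.007 in young arrays.

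Lama4 and Lama2, the alpha chains typical of vessel wall and muscle, did not pass the test. Lama4 (Entrez Gene 309816), the alpha-4 chain, which lacks the domain by which laminins form networks, was at 11.00, 11.00, 10.70 and 10.61 in young and at 10.50, 10.39, 10.79 and 10.58 in adult arteries. Adult replicate 3 lay above young replicates 3 and 4, so the groups overlapped. The difference was -0.26 ± 0.12 (95% interval -0.547 to 0.018, limma adjusted p = 0.116). Lama2 (Entrez Gene 309368), the alpha-2 chain of muscle and nerve, was at 10.43, 10.35, 10.32 and 10.27 in young and at 10.27, 10.26, 10.05 and 10.05 in adult arteries. The highest adult array (10.266) lay just below the lowest young array (10.269). The difference was -0.19 ± 0.064 (95% interval -0.337 to -0.036, limma adjusted p = 0.0489), above the threshold used and below one of 0.05. Neither interval reached the difference of Lama5.

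That the alpha chains changed unequally was tested within arrays. Lama5 minus Lama4 changed by -0.67 between ages, with no overlap of the groups (exact permutation test, two-sided, p = 0.0286). Lama2 minus Lama4 changed by 0.08 (exact permutation test, two-sided, p = 0.629), and its sign turned without adult replicate 2 (-0.012). All 36 pairs of measured genes were then compared in the same way, a step chosen after the data were seen. In 25 pairs the ages did not overlap, each with an exact permutation p of 0.0286, or 0.0412 after Benjamini-Hochberg adjustment over the 36 pairs. The share over pairs of all genes was not computed, and 46% of single genes did not overlap between the ages. The pairs also share genes and arrays, so their count is not read as a result about the family. Nid2 fell more than each of the other 8 genes, also with the lowest intensity subtracted. The direction of some pairs with Lama3 depended on the background. Lama3 minus Hspg2 kept its direction but went from -0.05 to -0.97 with the lowest intensity subtracted. In the deposited values Lama3 fell less than Lamb1, Lamc1 and Nid1, by 0.36, 0.44 and 0.47, whereas with the lowest intensity subtracted Lama3 minus each of them changed by -0.39, -0.44 and -0.44 (exact permutation test, two-sided, p = 0.0286 each). Lama3 minus Lama5 turned likewise, from 0.23 to -0.64. Lama2 differed in this way from every gene but Lama4, and Lama4 from every gene but Lama2 and Hspg2 (exact permutation p = 0.0571 for the latter). Nid1, Lamc1, Lamb1 and Lama5, neighbours in the order of the differences, were not told apart from each other, with exact permutation p values from 0.0857 to 0.657 over their 6 pairs.

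Hspg2 (Entrez Gene 313641) encodes perlecan, the heparan sulfate proteoglycan of the sheet. It was at 12.41, 12.36, 12.37 and 12.31 in young and at 11.71, 11.77, 11.67 and 11.69 in adult arteries, with no overlap between the ages. The difference was -0.66 ± 0.028, the smallest standard error of the 9 genes (limma adjusted p = 5.15e-06), a 1.58-fold lower adult level. Within arrays Hspg2 fell less than Nid1 by 0.52 and less than Lamc1 by 0.49 (exact permutation test, two-sided, p = 0.0286 each).

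The 7 calls held without each array in turn and under each of the other fits tried. With 1 array left out, the largest adjusted p among them was 0.000479 (Lama5), and the differences of Lama2 and Lama4 ran from -0.22 to -0.15 and from -0.34 to -0.21 without passing the threshold.

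**Figure D2:**
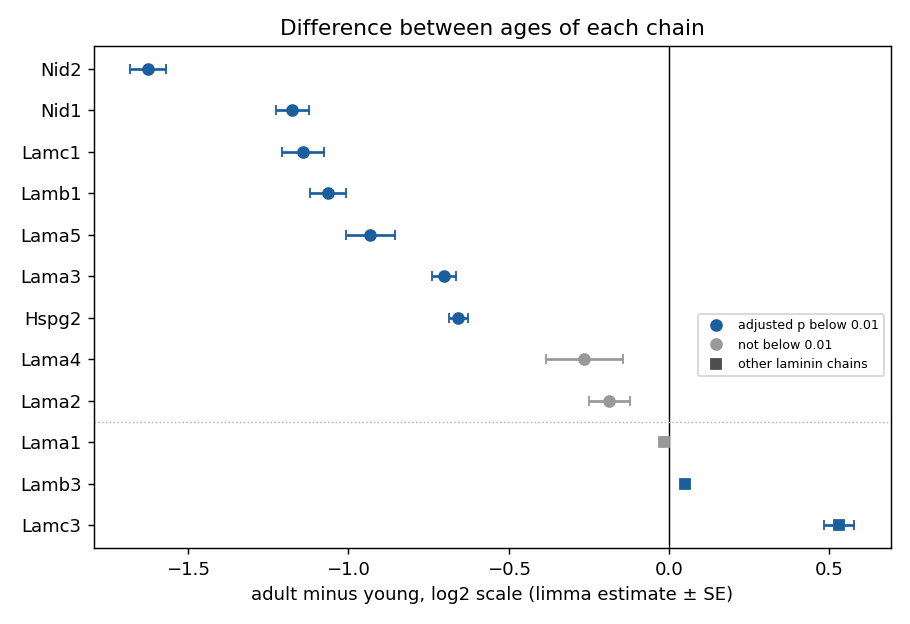
The adult minus young difference on the log2 scale (horizontal axis, limma estimate ± SE) is plotted for the 9 measured genes (circles) and, below the dotted line, for 3 laminin chains outside the list (squares). Blue marks an adjusted p below 0.01. Nid2 lies lowest at -1.62, and Lamc3 is highest at 0.53.

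The sequence upstream of the genes is shown because several of them moved together. RefSeq sequences of build GRCr8 matched 8 of the 9 genes, all but Nid2. Only the first listed start of each gene was used, and whether the artery uses that start was not tested. In the 250 bases before the start, Hspg2, Lama5, Lamc1, Nid1 and Lamb1 held 22, 20, 19, 17 and 14 CpG sites, against a median of 5 over 33469 rat promoters, of which 27.6% held 14 or more. All 5 of these genes fell, as did Lama3, which was not rich in CpG sites. The share of genes with CpG-rich promoters that fell over the array was not computed. Promoters of genes with similar expression levels were not compared either, so no link between CpG sites and the fall is read here. Each of the 5 held 2 to 5 GC boxes (GGGCGG on either strand), where 14.8% of all promoters held 2 or more. Lama2 held 2 CpG sites and 1 GC box, and Lama4 held 8 CpG sites and no GC box. Lama3 held 6 CpG sites, no GC box and 3 matches to the AP-1 motif (TGANTCA, the same on both strands). That motif was found at least once in 6.34% of all promoters and 3 times or more in 0.0149%. Lama4 held the only match to TATAAA, the letters of the TATA box (either strand, 12.9% of all promoters). That match lay in the upstream part of the window, far from the start, and is not called a TATA box here. Lama2 held the only CArG box, the site bound by serum response factor (1.5% of all promoters). CCAAT on either strand was found in Lama2 and Nid1 and in 34% of all promoters. These matches are descriptions of the letters and were not tested for binding.

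The windows of a pair that fell with several GC boxes, of the chain with AP-1 matches and of Lama4, one of the chains that did not pass the test, are given 5′ to 3′ on the gene's strand, with GC boxes, AP-1 matches and the TATAAA match in capitals. They lie at chr13:68051987-68052236 (Lamc1, minus strand), chr5:154960596-154960845 (Hspg2, plus strand), chr18:3952517-3952766 (Lama3, plus strand) and chr20:43946648-43946897 (Lama4, plus strand).
Lamc1: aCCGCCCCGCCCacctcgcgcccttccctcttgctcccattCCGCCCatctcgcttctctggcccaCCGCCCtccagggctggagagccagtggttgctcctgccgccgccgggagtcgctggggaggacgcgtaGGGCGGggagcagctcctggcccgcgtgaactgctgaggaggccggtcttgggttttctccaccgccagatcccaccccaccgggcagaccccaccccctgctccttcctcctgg
Hspg2: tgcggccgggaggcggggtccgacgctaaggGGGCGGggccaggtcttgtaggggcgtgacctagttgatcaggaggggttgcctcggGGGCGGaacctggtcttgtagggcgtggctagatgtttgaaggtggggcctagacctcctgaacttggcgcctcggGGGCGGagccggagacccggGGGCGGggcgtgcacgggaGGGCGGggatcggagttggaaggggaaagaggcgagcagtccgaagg
Lama3: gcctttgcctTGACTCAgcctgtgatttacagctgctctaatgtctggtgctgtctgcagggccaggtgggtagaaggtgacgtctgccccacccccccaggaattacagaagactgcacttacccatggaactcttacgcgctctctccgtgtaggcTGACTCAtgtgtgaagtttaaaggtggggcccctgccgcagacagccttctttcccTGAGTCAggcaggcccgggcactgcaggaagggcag
Lama4: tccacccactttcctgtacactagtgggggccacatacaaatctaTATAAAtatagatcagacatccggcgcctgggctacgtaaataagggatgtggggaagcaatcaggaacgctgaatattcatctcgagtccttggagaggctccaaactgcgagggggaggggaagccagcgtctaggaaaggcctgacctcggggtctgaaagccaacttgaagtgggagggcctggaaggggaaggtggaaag

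Of 3 laminin chains outside the list, 2 rose and 0 fell, where 16.7% of all genes rose and 16% fell. Lamc3, the gamma-3 chain, rose from a range of 7.18 to 7.30 in young to a range of 7.67 to 7.87 in adult arteries, with no overlap. Its difference was 0.53 ± 0.047 (limma adjusted p = 0.000104). Lamb3, the beta chain that joins Lama3 in the epidermal laminin, differed by 0.05 ± 0.010 (limma adjusted p = 0.00529). Its means were 6.995 in young and 7.046 in adult arteries, a 1.036-fold higher adult level near the lower end of the range of the table. The call of Lamb3 was lost without adult replicate 3 or 4 or any 1 young replicate (adjusted p 0.0114 to 0.0186). Lama1, the alpha chain of embryonic laminin, differed by -0.01 ± 0.0085 (limma adjusted p = 0.235), and its sign turned to 0.04 when arrays were centred by their ribosomal protein genes.

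Other proteins of the sheet more often fell than rose. Of 24 measured basement membrane proteins outside the family, 13 fell and 5 rose, with a median of -0.34. Over all genes, 16% fell and 16.7% rose by the same test. Fibulin-2 (Fbln2), which binds nidogen and perlecan, fell by 2.61 ± 0.166, and peroxidasin (Pxdn), the enzyme that crosslinks type IV collagen, by 2.01 ± 0.096 on the log2 scale. Smoc2, a calcium-binding relative of Sparc, fell by 1.37 ± 0.103. Chosen after their values were seen, agrin (Agrn), the other large heparan sulfate proteoglycan that binds laminin, fell by 1.26 ± 0.070, and the type IV collagen chains Col4a1 and Col4a2 fell by 0.65 ± 0.059 and 0.96 ± 0.015. The highest differences were those of Smoc1 (1.32 ± 0.202), Ntn4 (1.18 ± 0.095) and Col18a1, the source of endostatin (0.38 ± 0.049). Ntn4, netrin-4, binds the short arm of the laminin gamma-1 chain and was at 8.14, 8.44, 8.51 and 8.61 in adult arteries, where the young values ran from 7.19 to 7.29. Without adult replicate 2, young replicate 1 or young replicate 3, the number that rose was 3. Several calls lay near the threshold and were lost with 1 array fewer, while the differences kept their direction. The call of Sparc (-0.44 ± 0.091), a collagen-binding protein, was lost without any 1 array but adult replicate 1 (adjusted p 0.0103 to 0.0184), with differences from -0.48 to -0.39. The call of Ntn1 (-0.40 ± 0.078), netrin-1, was lost without adult replicate 2 or 4 or young replicate 1, 2 or 3 (adjusted p 0.0117 to 0.0142). The call of Ecm1 (0.31 ± 0.058) was lost without adult replicate 1, 2 or 3 or young replicate 1 or 3 (adjusted p 0.01 to 0.0126), and that of Col4a6 (0.15 ± 0.029) without adult replicate 2 or young replicate 1, 3 or 4 (adjusted p 0.01 to 0.0141). With ribosomal protein centring and ANOVA, 6 fell and 2 rose. The calls of Sparc, Ntn1, Ecm1, Col4a6, Col4a1, Col18a1, Papln, Tinagl1, Egflam and Frem2 were lost in that setting.

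A list of laminin receptors and proteins linked to them, called receptors for short, had more genes that rose than fell. Of 18 measured genes of integrins, the dystroglycan complex and other laminin binders, 9 rose and 3 fell, and the median was 0.30. Over all genes, 16.7% rose and 16% fell by the same test. Dystrophin (Dmd), which ties dystroglycan to the cytoskeleton, rose by 1.24 ± 0.151, from a range of 9.32 to 9.99 in young to a range of 10.63 to 10.92 in adult arteries. Integrin alpha-1 (Itga1), a receptor for collagen and laminin, rose by 0.84 ± 0.106, and the heparan sulfate proteoglycan syndecan-4 (Sdc4) by 0.79 ± 0.139. The call of Sdc4 was lost without young replicate 1 or 3 (adjusted p = 0.0101 each). The integrin beta-1 chain (Itgb1) rose by 0.31 ± 0.057, a call lost without adult replicate 2 (adjusted p = 0.0101) or 3 (adjusted p = 0.0117). Utrophin (Utrn, 0.51 ± 0.085) and the adhesion molecule Mcam (0.35 ± 0.044) rose as well. Chosen after their values were seen, dystroglycan itself (Dag1, 0.27 ± 0.042) and Bcam (0.45 ± 0.060), a receptor for the alpha-5 chain, also rose. Syndecan-1 (Sdc1, -1.46 ± 0.111), integrin alpha-6 (Itga6, -1.25 ± 0.169) and integrin alpha-2 (Itga2, -0.23 ± 0.017) were those that fell. Itga6, part of the main laminin-binding integrins of endothelium and epithelium, ran from 8.53 to 9.30 in young and from 7.65 to 7.77 in adult arteries. Chosen after their values were seen, the other chains of laminin-binding integrins Itga3 (0.45 ± 0.127), Itga7 (0.33 ± 0.087) and Itgb4 (-0.57 ± 0.186) did not pass the test. With ribosomal protein centring and ANOVA, 2 genes of the list rose (Itga1 and Utrn) and 2 fell (Sdc1 and Itga6).

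Enzymes that build the sugar chains of these proteins were counted too, beside the 16% of all genes that fell and the 16.7% that rose. Of 19 genes that make or edit heparan sulfate, the chain carried by perlecan, 12 fell and 1 rose, with a median of -0.37. The sulfatase Sulf1 fell by 0.99 ± 0.121, the sulfotransferase Ndst2 by 0.82 ± 0.031 and the chain polymerase subunit Ext2 by 0.76 ± 0.078 on the log2 scale. The member that rose was Extl2 (0.13 ± 0.024), whose call was lost without adult replicate 1 or 2 or young replicate 1 or 2 (adjusted p 0.0102 to 0.0116). Without young replicate 4, 2 rose. The sulfatase Sulf2 (-0.66 ± 0.126) lost its call without adult replicate 2, 3 or 4 or young replicate 1, 2 or 3 (adjusted p 0.014 to 0.015), and B4galt7 (-0.12 ± 0.024), which adds the first galactose of the linker, without any 1 adult replicate or young replicate 2 (adjusted p 0.0121 to 0.0152). Of 12 genes that glycosylate dystroglycan, 1 rose and 4 fell, with a median of -0.03. With 32.7% of all genes called in either direction, that count is not read as a result about the list. Rxylt1, which adds a xylose to the glycan, rose by 0.35 ± 0.034. Without young replicate 3, B3galnt2 passed the test as well (0.38, adjusted p = 0.00338), so that 2 rose. Pomt1 (-0.54 ± 0.040) and Pomt2 (-0.20 ± 0.031), which attach the first mannose, and Pomk (-0.29 ± 0.050) fell. Gmppb (-0.15 ± 0.027), which makes GDP-mannose, fell too, a call lost without adult replicate 3 or 4 or young replicate 3 (adjusted p 0.0113 to 0.0128). With ribosomal protein centring and ANOVA, 3 heparan sulfate genes fell and 0 rose, and 0 dystroglycan glycosylation genes passed the test.

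**Figure D3:**
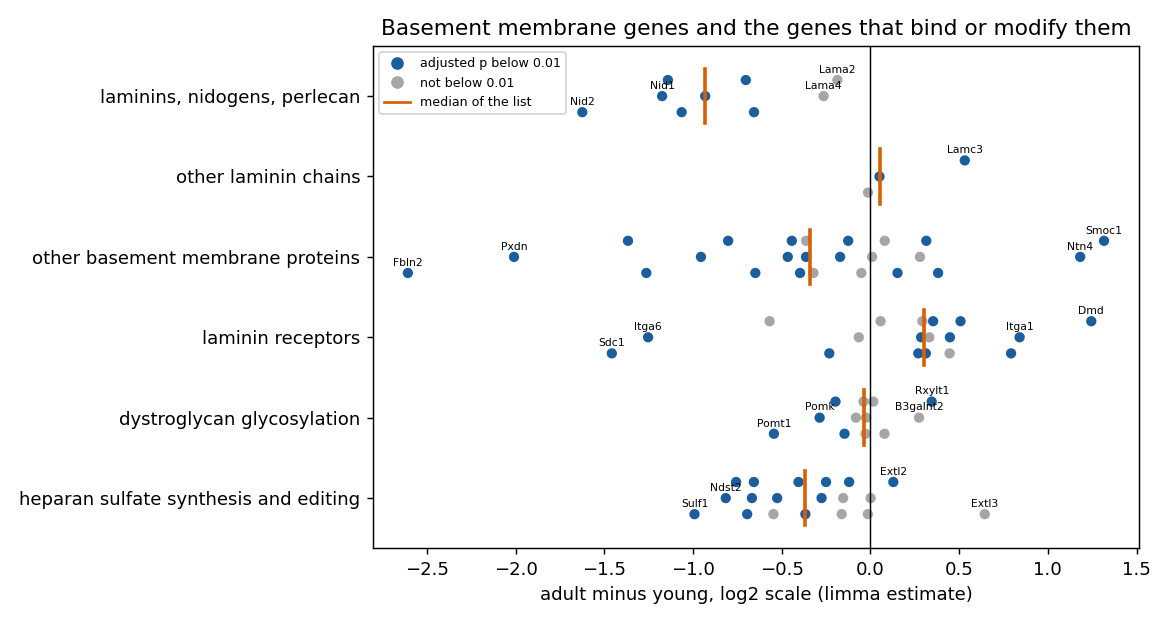
The adult minus young difference on the log2 scale (horizontal axis, limma estimate) is plotted for each gene of the 9 measured laminins, nidogens and perlecan and of 5 related lists, with the vertical offset within a row serving only to separate points. Blue points had an adjusted p below 0.01 and the orange line is the median, which was -0.93 for the family and 0.30 for the receptors and proteins linked to them.

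Markers of cell types shifted between the ages as well, and in whole arteries fewer cells of a type cannot be told apart from less RNA per cell. Over all genes, 16% fell and 16.7% rose by the same test (32.7% in either direction). The counts of the Schwann cell, skeletal muscle and adipocyte lists lay near or below that share and are not read as results about those cells. Of 13 measured markers of endothelium, a source of Lama4 and Lama5, 8 fell and 0 rose. Their mean log2 value ran from 8.93 to 9.25 in young and from 8.07 to 8.35 in adult arrays. Among them Cdh5 fell by 2.35 ± 0.164, whereas Pecam1 differed by -0.30 ± 0.088 (limma adjusted p = 0.026). Of 7 smooth muscle markers 6 rose, and their mean ran from 11.63 to 11.74 in young and from 12.29 to 12.41 in adult arrays. Of these, Myh11 and Tagln had means of 13.0 and 13.1 in young and 13.4 and 13.5 in adult arteries. Of 10 fibroblast markers 7 fell and 2 rose, with a mean from 11.23 to 11.30 in young and from 10.79 to 10.98 in adult arrays. All 9 measured genes of dividing cells fell, from a mean of 8.16 to 8.39 to a mean of 7.03 to 7.06. Of 12 markers of Schwann cells and nerve 3 fell and 1 rose, with a mean from 7.84 to 8.08 in young and from 7.47 to 7.61 in adult arrays. Of 10 skeletal muscle markers 1 fell, with a mean from 7.74 to 8.57 in young and from 7.71 to 7.92 in adult arrays. Of 7 macrophage markers 6 rose, with a mean from 7.36 to 7.47 in young and from 7.66 to 7.83 in adult arrays, and 0 of 8 adipocyte markers passed the test (limma, with 1 at an unadjusted p under 0.05, and 0 by ANOVA). The part of these shifts in the fall of the laminin, nidogen and perlecan genes was not tested.

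**Figure D4:**
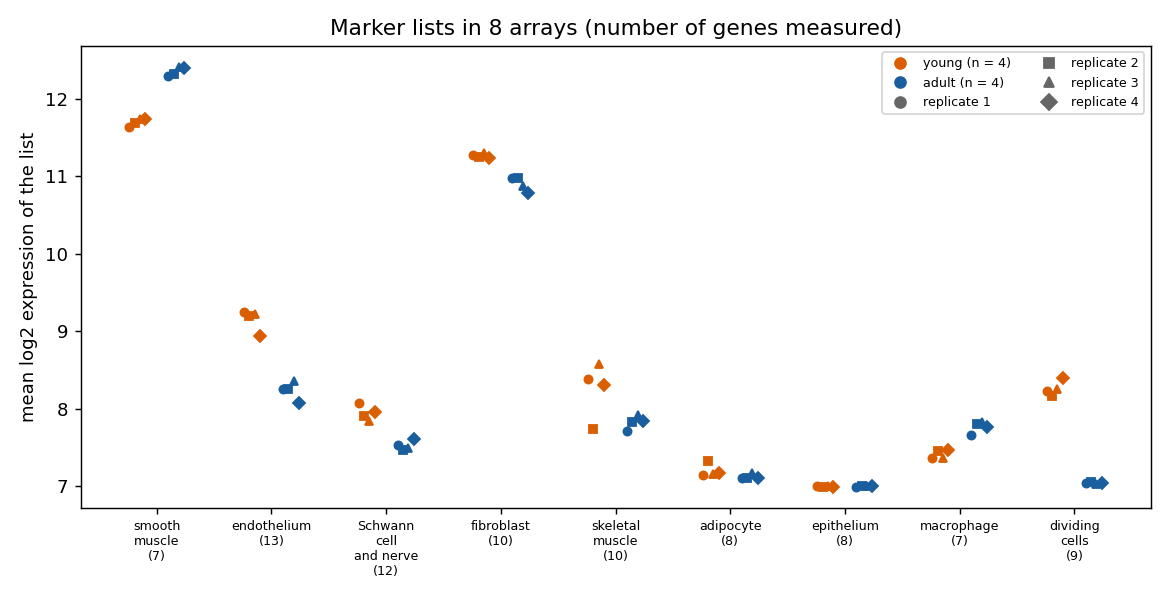
The mean log2 expression (vertical axis) of each marker list is plotted for the 4 young (orange) and 4 adult (blue) arrays, with a symbol for each replicate number and the number of genes measured in parentheses. Endothelial and dividing cell lists are lower, and smooth muscle markers are higher, in adult arrays, while epithelial markers lie at about 7 in all 8.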

How the data were processed

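Total RNA of 8 saphenous artery samples had been measured on GeneChip Rat Gene arrays, 1 per sample. The deposited values are log2 expression after RMA and quantile normalization by the authors, with a custom chip definition of 1 probe set per Entrez gene. They ran from 6.8 to 13.82, and the sorted values were the same in every column, so an overall shift between ages cannot be seen. The RMA version and background correction are not given in the sources used here. The number of arrays limits the precision. Correlations between arrays of 1 age were 0.9912 or higher.

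Probe sets were named from the probe annotation (16592) or, where it lists none, by Entrez identifier in the RefSeq table of assembly GRCr8 (1834, Hspg2 among them), and 813 were not named. Groups came from the labels. Ages were tested by lmFit and eBayes of limma 3.58.1 (R 4.3.3) on all 19239 probe sets with no covariate, Benjamini-Hochberg adjustment and a threshold of 0.01, after a check on simulated data. P-values set the differences against the spread between these samples. That spread lies between pools of 2 animals in young and between single animals in adult, while limma and ANOVA use 1 variance per gene for both groups. Pairs of members were compared within arrays by exact permutation tests. The members and lists were chosen with earlier results of these data known. Named genes were the measured members and other laminin chains, the 3 highest and 3 lowest called genes of each related list, genes whose call was lost or whose sign turned under an alternative other than the fold minimum, and markers. Others are marked as chosen after their values were seen. Lamb2 and its comparison with Lamb1 were not analysed here, and 4 genes of the related lists are not reported here.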

Additional observations from a re-analysis of the deposited data

Results flagged for a closer look

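In 5 of 70 groups of 4 arrays tested, the gap between 1 array and the nearest other took up more of the group's range than Dixon's 95% critical value allows, and chance gives about 1 in 20. Lamc1 in young replicate 4 was at 11.53, where the other young arrays lay between 11.72 and 11.75 (gap 0.855 of the range). Nid1 in adult replicate 1 was at 11.69, with the others between 11.46 and 11.49 (0.874), and the within-array difference of Nid2 minus Nid1 stood apart in the same array at -4.42, with the others between -4.20 and -4.17 (0.875). Itga1 in young replicate 4 was at 10.55, with the others between 10.83 and 10.89 (0.831). In young replicate 3, Pomk was at 8.39 (others 8.22 to 8.24, gap 0.841 of the range). Without young replicate 4 the difference of Lamc1 was -1.20, and without adult replicate 1 that of Nid1 was -1.23, both past the threshold.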

How the results depend on the processing

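The 7 calls among laminins, nidogens and perlecan held under all 20 alternatives, namely the methods' ANOVA, an intensity trend, array weights, ribosomal protein centring (by limma and, chosen after seeing the data, by ANOVA), background subtraction, a filter on dim genes, 2 blocks (the replicate number, and sample code numbers below or above 20), 2 thresholds and 9 sets of fewer arrays. Lama2 passed the looser threshold of 0.05 (-0.19), and Lama4 passed none. Same-numbered arrays of the ages did not deviate together (correlations -0.082 to 0.04), so the numbers do not pair samples; with the replicate number as a block 2191 genes rose and 2217 fell (3216 and 3080 without it), the 7 members were still called, 1 other laminin chain, 3 other basement membrane proteins, 6 receptors and 0 heparan sulfate genes rose and 2 dystroglycan glycosylation genes fell, with the calls of Lamb3, Ntn1, Papln, Sparc, Smoc1, Ecm1, Mcam, Sdc4, Utrn, Pomk, Gmppb, B4galt7 and Extl2 lost. With ribosomal protein centring (30 genes), which raised the median of all genes by 0.055, 1559 genes fell and 2242 rose, 1 other laminin chain and 2 dystroglycan glycosylation genes rose and 1 of the latter fell, with the calls of Lamb3, Col4a6, Papln, Frem2, Itga2, Pomt2, Pomk, Gmppb, Xylt2, B4galt7, Extl2 and Hs6st2 lost and the signs of the uncalled Lama1, Fras1, Pomgnt1, B4gat1, Dpm1 and Hpse turned. That fit also changed the variances, since limma gave every gene the same standard error (0.094). With each gene's own variance (ANOVA) after the same centring, 1036 genes rose and 536 fell, 1 other laminin chain, 2 basement membrane proteins, 2 receptors, 0 dystroglycan glycosylation genes and 0 heparan sulfate genes rose, and 6, 0 and 3 basement membrane, dystroglycan glycosylation and heparan sulfate genes fell. The calls lost there included those of Tinagl1, Egflam, Cd151, Xylt1, B3gat3, Glce and Hs6st1. ANOVA on the deposited values lost the calls of Ntn1, Sparc and Sulf2. The signs of the uncalled Pomgnt2, B3galt6 and Col4a4 turned without single arrays. With the lowest intensity subtracted, 27 of 36 member pairs did not overlap, a count without a share over pairs of all genes. In that setting the change between ages turned to -0.64, -0.39, -0.44 (-0.443) and -0.44 (-0.437) for Lama3 minus Lama5, Lamb1, Lamc1 and Nid1, and to -0.057 and -0.051 for Lamb1 minus Lamc1 and Nid1. Without the dimmest 25% of genes, 1 other laminin chain rose. With a fold of at least 1.5, 716 genes rose and 711 fell; 0 other laminin chains, 2 basement membrane proteins, 3 receptors, 0 dystroglycan glycosylation genes and 0 heparan sulfate genes rose, and 7, 0 and 6 basement membrane, dystroglycan glycosylation and heparan sulfate genes fell. Leaving out 1 array gave 1 to 2 other laminin chains, 1 to 2 dystroglycan glycosylation genes, 3 to 5 basement membrane proteins and 0 to 2 heparan sulfate genes that rose, and moved Lama5 minus Lama4 between -0.73 and -0.54, Nid2 minus Nid1 between -0.49 and -0.39, and Lama2 minus Lama4 between -0.012 (without adult replicate 2, reversed) and 0.19. Without adult replicate 1 and young replicate 4 together, 1 other laminin chain and 0 heparan sulfate genes rose, and Lama5 minus Lama4 (-0.58) and Nid2 minus Nid1 (-0.40) had the smallest exact permutation p that 3 against 3 arrays allow (0.1). Values near the bottom of the table, as of adult Nid2 and Lama3, limit their fold.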
